A study of Mus musculus with 24 samples.

Results

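The genes described here were Th, Slc17a8, P2ry1 and Zfp521, 4 markers of low-threshold C-fiber neurons. Their rows were found by symbol among the 47643 Ensembl gene identifiers of the count files, 1 row for each, and all 4 passed the filter on low counts. Expression was measured by RNA-seq in 24 libraries, each made from 100 GFP-positive cells sorted by flow cytometry from L4 DRG. Each of 4 control and 4 Nav-Tsc2 mice gave 3 such libraries, labelled A to C. All mice carried Nav1.8-Cre and the Cre-dependent reporter Rosa26-ZsGreen, were 8 to 9 weeks old and were of a mixed background of the strains C57BL/6 and AJ. Control mice were Tsc2 flox/+ and therefore lost 1 copy of Tsc2 in cells with Cre activity. Nav-Tsc2 mice were Tsc2 flox/null, so that cells with Cre activity lost both copies while every other cell carried 1. In both genotypes replicates 1 and 2 were male and replicates 3 and 4 female, and the ganglia came from the uninjured side, 3 d after a crush of the opposite sciatic nerve. The sort could take any neuron whose lineage had expressed the sodium channel Nav1.8, of which low-threshold C-fiber neurons are 1 class, and the number of cells of that class in a library is not known.

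Low-threshold C-fiber mechanoreceptors are unmyelinated sensory neurons that innervate hairy skin and respond to gentle stroking and cooling. In mouse DRG they are recognised by tyrosine hydroxylase, the product of Th and the rate-limiting enzyme of catecholamine synthesis, and by VGLUT3, the product of Slc17a8, which loads glutamate into synaptic vesicles. P2ry1 encodes P2Y1, an ADP receptor that couples to Gq and is also found in nonpeptidergic nociceptors. Zfp521 encodes a zinc-finger protein that binds transcription factors of the EBF family.

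In GRCm38 with the GENCODE M21 annotation, Th (ENSMUSG00000000214) spans chr7:142892752-142931128 on the minus strand, Slc17a8 (ENSMUSG00000019935) spans chr10:89574020-89621253 on the minus strand, and P2ry1 (ENSMUSG00000027765) spans chr3:61002795-61008982 on the plus strand.  Another gene on the opposite strand, Gm37035, overlaps 23.1% of the exon sequence of P2ry1. The counting is not stated to use strand, so it is not known whether reads of that stretch were counted for P2ry1. The 250 bases before the RefSeq start of 3 of the genes (GRCm38.p6) are given as a description, and shared regulation of the markers was not tested. Capitals mark matches, on either strand, to the cAMP response element TGACGTCA, the AP-1 motif TGANTCA, the RUNX motif TGTGGT or the EBF motif CCCNNGGG.
Th, chr7:142899996-142900245, minus strand: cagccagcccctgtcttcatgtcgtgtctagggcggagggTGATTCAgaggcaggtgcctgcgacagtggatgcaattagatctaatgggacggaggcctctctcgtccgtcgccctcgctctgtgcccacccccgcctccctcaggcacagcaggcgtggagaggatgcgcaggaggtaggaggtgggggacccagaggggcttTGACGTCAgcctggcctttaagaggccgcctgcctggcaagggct
Slc17a8, chr10:89621250-89621499, minus strand, 1 of 2 starts listed: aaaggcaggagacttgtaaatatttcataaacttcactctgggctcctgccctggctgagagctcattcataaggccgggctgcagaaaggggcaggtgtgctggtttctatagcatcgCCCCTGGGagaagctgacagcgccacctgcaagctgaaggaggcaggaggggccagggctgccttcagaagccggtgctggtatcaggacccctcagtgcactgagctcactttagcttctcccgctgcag
P2ry1, chr3:61002535-61002784, plus strand: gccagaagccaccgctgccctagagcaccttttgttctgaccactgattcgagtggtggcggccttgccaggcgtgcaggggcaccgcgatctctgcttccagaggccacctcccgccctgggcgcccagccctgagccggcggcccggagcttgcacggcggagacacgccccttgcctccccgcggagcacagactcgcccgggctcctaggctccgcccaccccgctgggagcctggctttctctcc
The RefSeq start of Th differs from the start of its GENCODE span, which on the minus strand is 142931128. The Th stretch therefore lies inside that span. It held a cAMP response element whose first base lay 45 bases before the RefSeq start and an AP-1 motif 210 bases before it. The Slc17a8 stretch held an EBF motif 131 bases before its start, and none of the 4 motifs was found in that of P2ry1. Among 32851 promoters of the same length, 1.55% held the cAMP response element, 6.75% the AP-1 motif, 14.05% the RUNX motif and 11.8% the EBF motif. No motif was shared by the 3 stretches, whose GC content was 64.4% for Th, 57.2% for Slc17a8 and 70.8% for P2ry1.

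Libraries held 8339220 to 34228180 counts on genes, with medians of 16882861 in control and 17062573 in Nav-Tsc2 libraries, and the 3 libraries of a mouse together held 47959617 to 61290435. For the comparison of genotypes the counts were summed per mouse, so that the mouse was the replicate, and levels are given as normalized CPM, in which counts are divided by a TMM-scaled library size. A gene was called where edgeR's quasi-likelihood test over 17178 genes gave an adjusted p below 0.05 and a log2 difference beyond 0.5 either way, as it did for 17.1% of them. The targeted gene Tsc2 had means of 20.9 CPM ± 5.18 in control and 8.87 CPM ± 1.52 in Nav-Tsc2 mice (SD, n = 4), a log2 fold change of -1.24 ± 0.22 (SE, adjusted p = 0.004), and the genotypes did not overlap, as for 26.9% of all genes tested. Markers of the sorted neurons were present in every mouse, with Scn10a, the gene of Nav1.8, at 670 CPM ± 138 in control and 608 CPM ± 35.1 in Nav-Tsc2 mice.

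Th was higher in Nav-Tsc2 mice by its mean and was the only marker of the 4 that passed the test, which had no block for the replicate number. It was measured at 180.1, 14.3, 86.6 and 116 CPM in control replicates 1 to 4. In Nav-Tsc2 replicates 1 to 4 it was measured at 1201, 882, 90.6 and 1287 CPM. Nav-Tsc2 replicates 1, 2 and 4 lay above every control mouse, whereas Nav-Tsc2 replicate 3 lay inside the control range, so the genotypes overlapped. The means were 99.4 CPM ± 68.8 in control and 865 CPM ± 545 in Nav-Tsc2 mice (SD, n = 4), and the log2 fold change was 3.12 ± 0.85 (SE, adjusted p = 0.0282). Over all genes tested, 9.12% were called higher and 8.00% lower. The call did not hold with the replicate number as a block, where the log2 fold change was 3.07 and adjusted p = 0.0766. It was also lost when any of control replicates 3 and 4 and Nav-Tsc2 replicates 1, 2 and 4 was left out (adjusted p = 0.0567 to 0.0708), and held without Nav-Tsc2 replicate 3 (adjusted p = 0.00971). Because whole sorted populations were sequenced, more cells with Th and more Th RNA per cell cannot be told apart.

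Between the libraries of 1 mouse, Th varied widely. Control replicate 1 had 266, 14.3 and 284 CPM in libraries A to C, and control replicate 3 had 29.6, 16.2 and 306 CPM. In the mouse that lay apart, Nav-Tsc2 replicate 3, the libraries had 10.7, 440.3 and 82.1 CPM. Nav-Tsc2 replicate 4, the highest mouse, had 27.2, 839 and 3264 CPM, so that 1 of its libraries also lay within the control range. Over the 12 control libraries the lowest, median and highest Th levels were 3.81, 27.3 and 306 CPM, and over the 12 Nav-Tsc2 libraries they were 10.7, 639.5 and 3264 CPM. Of the 12 Nav-Tsc2 libraries, 8 exceeded the highest control library and 4 lay inside the control range. Counts did not limit these values, since even the control library with the least Th held 58 counts of it, although the reads were amplified without molecular identifiers and counting error is only part of the error.

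**Figure D1:**
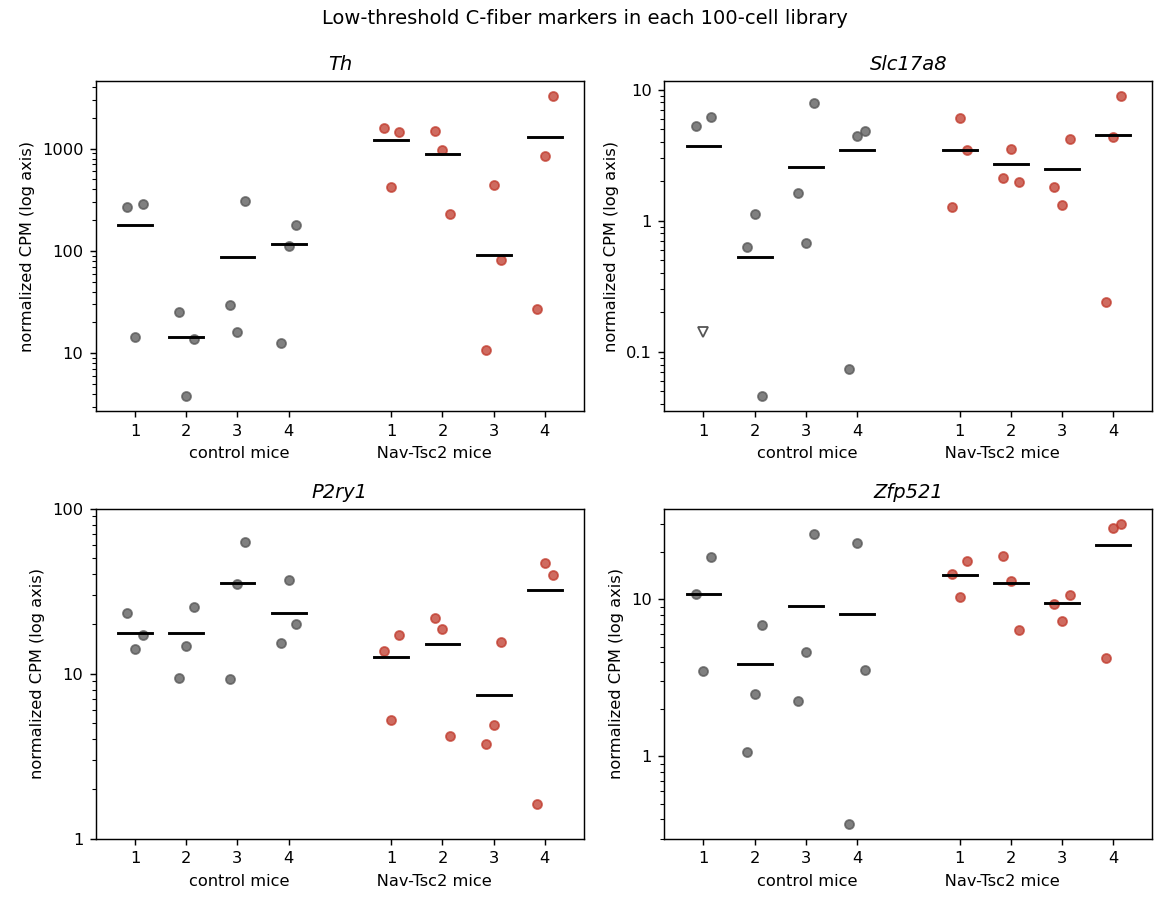
Level of each marker in every 100-cell library, as normalized CPM on a log axis, with libraries A to C of a mouse side by side and a black line at the level of the mouse; the open triangle is drawn at the level of 3 counts for a library with 0 counts. Most Nav-Tsc2 libraries lay above the control libraries for Th, while libraries of both genotypes covered much of the same range for Slc17a8, P2ry1 and Zfp521.

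Of 15 genes of catecholamine synthesis, transport and breakdown, 12 were tested. Of these, 4 were called higher and 0 lower, beside 9.12% and 8.00% of all genes tested. Their median log2 fold change was 0.43, against 0.0082 over all genes tested. All 4 calls held with the replicate block, and those of Qdpr and Slc18a1 lay near the threshold there (adjusted p = 0.0478 and 0.0499). Of 17 alternative fits, described further on, Gch1 and Maoa were called in 17, Slc18a1 in 16 and Qdpr in 10. Gch1, the first enzyme in the synthesis of tetrahydrobiopterin, the cofactor of tyrosine hydroxylase, was at 3.13, 2.05, 4.74 and 3.71 CPM in control and 14.3, 12.6, 12.3 and 11.8 CPM in Nav-Tsc2 replicates 1 to 4. The genotypes did not overlap for Gch1, and its log2 fold change was 1.90 ± 0.26 (adjusted p = 0.001). Qdpr, which recycles this cofactor, rose by 0.52 ± 0.15 in log2 units (adjusted p = 0.032). Slc18a1, a vesicular monoamine transporter, rose by 1.42 ± 0.35 (adjusted p = 0.018). Its counterpart Slc18a2 averaged 71.4 CPM in control and 62.7 CPM in Nav-Tsc2 mice and did not pass the test (adjusted p = 0.184). All Nav-Tsc2 mice lay below all control mice for Slc18a2, as for 12.3% of all genes in that direction. Maoa, which breaks down monoamines, rose by 1.03 ± 0.10, from 103 CPM to 210.2 CPM. Nav-Tsc2 replicate 3, which was low for Th, was at 12.3 CPM for Gch1 and 178 CPM for Maoa, above every control mouse for both.

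The enzymes that act after tyrosine hydroxylase were low in both genotypes. Ddc, which makes dopamine, was at 1.17, 7.14, 1.41 and 2.85 CPM in control and 0.329, 0.318, 0 and 1.34 CPM in Nav-Tsc2 replicates 1 to 4 (log2 fold change -2.66 ± 1.10, adjusted p = 0.123). Dbh, which turns dopamine into noradrenaline, was at 0.813, 0.151, 0.868 and 0 CPM in control and 2.37, 2.92, 5.78 and 3.55 CPM in Nav-Tsc2 replicates 1 to 4. The mice did not overlap for Dbh, as for 14.6% of all genes in that direction, but it did not pass the test (log2 fold change 2.98 ± 0.97, adjusted p = 0.056). Dbh was highest in Nav-Tsc2 replicate 3, the mouse with the least Th of its genotype. Sympathetic neurons also express Th, and of 7 of their markers only Dbh and Slc18a2 passed the filter. The defining sympathetic factors Phox2a and Hand2 and the noradrenaline transporter Slc6a2 averaged 0.014, 0.010 and 0 CPM in control and 0.046, 0.0041 and 0.059 CPM in Nav-Tsc2 mice. Gata2 averaged 0.015 CPM in control and 0.506 CPM in Nav-Tsc2 mice, and Gata3 0.018 and 0.463 CPM, with no overlap for Gata3. The part of sympathetic neurons in the Th difference was not tested.

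**Figure D2:**
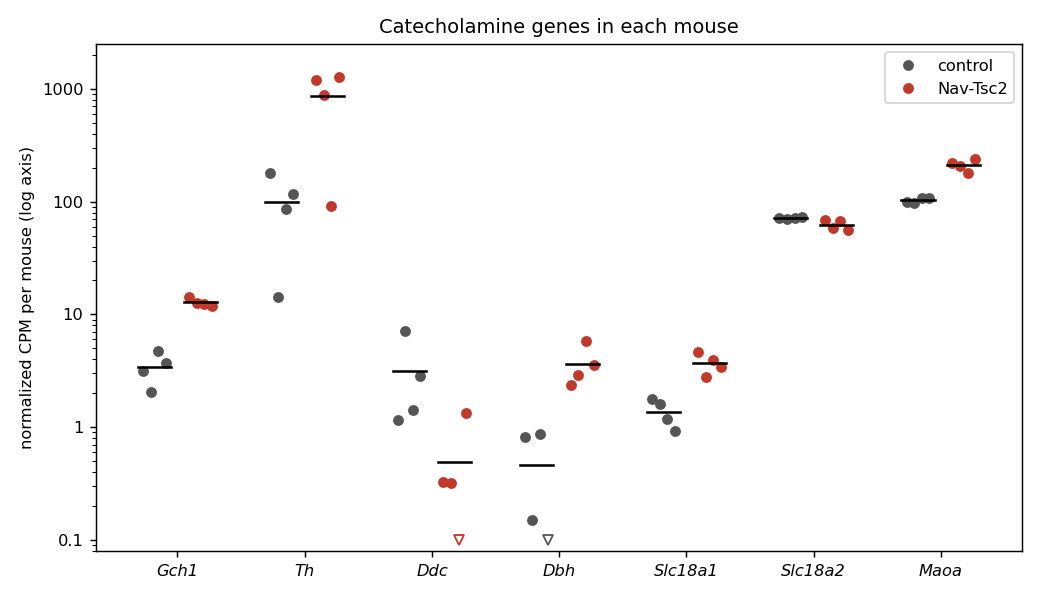
Genes of catecholamine synthesis (Gch1, Th, Ddc, Dbh), vesicular transport (Slc18a1, Slc18a2) and breakdown (Maoa) in each mouse, as normalized CPM on a log axis; points are replicates 1 to 4 from left to right, black lines are means, and open triangles at the bottom mark mice with 0 counts. Gch1 and Maoa separated all 4 Nav-Tsc2 mice from all 4 control mice, while Th left Nav-Tsc2 replicate 3 at 90.6 CPM, within the control range.

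Some markers of other cells differed between the genotypes as well, beside 9.12% of all genes called higher and 8.00% lower. The summed level of 11 glial genes was 2970 to 3111 CPM in control and 1949 to 2543 CPM in Nav-Tsc2 mice, with 1 gene, S100b, lower (939 and 98.6 CPM) and 0 higher. Without S100b the sums overlapped, at 1858 to 2335 CPM in control and 1921 to 2356 CPM in Nav-Tsc2 mice. The summed level of 6 endothelial genes was 0.326 to 1.85 CPM in control and 7.73 to 20.1 CPM in Nav-Tsc2 mice, and all 3 that were tested rose, Flt1 from 0.034 to 8.56 CPM, Ly6c1 from 0.018 to 2.63 CPM and Kdr from 0.358 to 1.76 CPM. The other 3 did not pass the filter, with Pecam1 at 0.422 and 0.315 CPM, Cdh5 at 0.051 and 0.115 CPM and Cldn5 at 0.015 and 0.024 CPM in control and Nav-Tsc2 mice. For 6 macrophage genes the sums were 1.77 to 6.33 CPM and 7.76 to 19.4 CPM, with 1 of 5 tested higher, Cx3cr1, at 0.033 CPM in control and 5.71 CPM in Nav-Tsc2 mice. Csf1r (0.803 and 3.71 CPM) and Cd68 (0.495 and 2.03 CPM) did not overlap between the genotypes but missed the threshold, and C1qa stood at 0.020 and 0.021 CPM. C1qb averaged lower in Nav-Tsc2 mice (1.75 and 0.574 CPM, adjusted p = 0.467), and Aif1 stood at 0.870 and 1.10 CPM (adjusted p = 0.834). For 6 fibroblast genes the sums were 73.1 to 236 CPM and 121 to 196 CPM, and for 4 red blood cell genes 1.18 to 1.66 CPM and 0.144 to 0.389 CPM, with no gene called in either list. Their part in the Th difference was not tested.

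Slc17a8 was detected at low levels and did not pass the test. It was at 3.69, 0.530, 2.57 and 3.47 CPM in control replicates 1 to 4 and 3.44, 2.71, 2.47 and 4.49 CPM in Nav-Tsc2 replicates 1 to 4. The genotypes overlapped, and the log2 fold change was 0.35 ± 0.53 (adjusted p = 0.700), which moved to 0.011 without control replicate 2, the lowest mouse, to 0.16 without Nav-Tsc2 replicate 4 and to 1.45 (adjusted p = 0.210) in a fit of the 24 libraries with mouse as a random effect. Over libraries, the lowest, median and highest levels were 0, 1.37 and 7.87 CPM in control and 0.240, 2.78 and 8.93 CPM in Nav-Tsc2. The 0 was control library 1B, where 3 counts would have been 0.143 CPM, and the other libraries of that mouse had 5.31 and 6.22 CPM. Of 7 genes of glutamate supply and vesicular loading, 1 rose and 1 fell, beside 9.12% and 8.00% of all genes tested. Their median log2 fold change was 0.32. The gene that rose was Slc1a2 (log2 fold change 2.06 ± 0.52, adjusted p = 0.021) and the gene that fell was Slc1a3 (-2.59 ± 0.45, adjusted p = 0.004), both of which take up glutamate at the plasma membrane. Per kilobase of exon, VGLUT3 was far below VGLUT2: Slc17a8 averaged 0.544 CPM per kb in control and 0.694 CPM per kb in Nav-Tsc2 mice, and Slc17a6 61.8 and 77.4 CPM per kb. The level of Slc17a7, the gene of VGLUT1, was 0.610 CPM per kb in control and 0.329 CPM per kb in Nav-Tsc2 mice.

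P2ry1 did not pass the test either. It was at 17.5, 17.6, 35.5 and 23.4 CPM in control replicates 1 to 4 and 12.6, 15.1, 7.46 and 32.1 CPM in Nav-Tsc2 replicates 1 to 4. Nav-Tsc2 replicates 1, 2 and 3 lay below every control mouse, but Nav-Tsc2 replicate 4 exceeded 3 of the 4 control mice. The log2 fold change was -0.48 ± 0.41 (adjusted p = 0.465), and without single mice it ran from -1.002 (without Nav-Tsc2 replicate 4, adjusted p = 0.0744) to -0.22 (without control replicate 3) and -0.23 (without Nav-Tsc2 replicate 3). Over libraries, the lowest, median and highest levels were 9.29, 18.6 and 62.7 CPM in control and 1.62, 14.7 and 46.9 CPM in Nav-Tsc2, and 5 Nav-Tsc2 libraries lay below every control library.

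Around P2Y1, most genes did not pass the test, and over all genes tested 9.12% were called higher and 8.00% lower. Of 7 other P2Y receptor genes 3 were tested, and P2ry2, an ATP and UTP receptor that also couples to Gq, fell from 6.82 to 2.14 CPM (log2 fold change -1.67 ± 0.37, adjusted p = 0.012). Of 9 genes of Gq signalling 8 were tested. Itpr3, an IP3 receptor, had a log2 fold change of 1.30 ± 0.41, called without the block (adjusted p = 0.049) but not with it (adjusted p = 0.107). Itpr3 was called in 5 of the 17 alternative fits. Plcb1, a phospholipase C that Gq activates, was 43.3, 42.8, 34.2 and 35.4 CPM in control and 5.99, 9.25, 6.37 and 8.56 CPM in Nav-Tsc2 replicates 1 to 4. Its log2 fold change was -2.37 ± 0.18 (adjusted p = 5.7e-05), and the genotypes did not overlap. Among 8 enzymes that break down extracellular nucleotides, Acp3, which makes adenosine from AMP, went from 178 to 452 CPM, and none was called lower. Acp3 was called higher without the block (log2 fold change 1.34 ± 0.36, adjusted p = 0.026) but not with it (adjusted p = 0.0828). It was called in 12 of the 17 alternative fits. The median log2 fold change was -0.58 for the P2Y receptors, -0.091 for Gq signalling and 0.050 for the nucleotide enzymes.

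Zfp521 (ENSMUSG00000024420, on chromosome 18) was higher in Nav-Tsc2 mice by its mean but did not pass the test. It was at 10.9, 3.88, 9.04 and 8.05 CPM in control replicates 1 to 4 and 14.4, 12.6, 9.49 and 22.1 CPM in Nav-Tsc2 replicates 1 to 4. The genotypes overlapped only through Nav-Tsc2 replicate 3, which lay below control replicate 1. The log2 fold change was 0.88 ± 0.34 (unadjusted p = 0.0293, adjusted p = 0.102). Over libraries, the lowest, median and highest levels were 0.372, 4.09 and 26.0 CPM in control and 4.21, 11.9 and 30.3 CPM in Nav-Tsc2. Of 5 genes made up of the Zfp521 paralog Zfp423 and the EBF factors, 0 rose and 1 fell, beside 9.12% and 8.00% of all genes tested. Their median log2 fold change was -0.75. The gene that fell was Ebf1, at 437, 476, 371 and 413 CPM in control and 252, 268, 242 and 245 CPM in Nav-Tsc2 replicates 1 to 4 (log2 fold change -0.75 ± 0.090, adjusted p = 0.0005).

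Ordered per kilobase of exon in control mice, the markers stood at 42.0 CPM per kb ± 29.1 for Th, 5.47 ± 1.97 for P2ry1, 1.13 ± 0.422 for Zfp521 and 0.544 ± 0.306 for Slc17a8 (SD over 4 mice). The order was the same in Nav-Tsc2 mice, at 366 CPM per kb ± 230.5, 3.92 ± 2.49, 2.08 ± 0.763 and 0.694 ± 0.192. In Nav-Tsc2 mice the neighbours P2ry1 and Zfp521 differed by less than the SD of P2ry1; no test was made between genes.

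Of 8 other genes used to recognise these neurons, 1 was called higher and 1 lower, beside 9.12% and 8.00% of all genes tested. Their median log2 fold change was 0.59. Bhlha9, a basic helix-loop-helix factor, had a log2 fold change of 0.79 ± 0.22, called without the block (adjusted p = 0.032) but not with it (adjusted p = 0.0945). Bhlha9 was called in 6 of the 17 alternative fits. Piezo2, the mechanically gated channel of touch neurons, was 203, 181, 316 and 333 CPM in control and 118, 112, 117 and 144 CPM in Nav-Tsc2 replicates 1 to 4, with no overlap (log2 fold change -1.07 ± 0.20, adjusted p = 0.005). Tafa4, which encodes a secreted protein of these neurons, was 84.0, 10.2, 66.3 and 88.6 CPM in control and 189, 148, 61.0 and 191 CPM in Nav-Tsc2 replicates 1 to 4. The lowest mice for Tafa4, control replicate 2 and Nav-Tsc2 replicate 3, were also the lowest of their genotype for Th, and its log2 fold change was 1.24 ± 0.57 (adjusted p = 0.160). Gfra2, Ret and Runx1 had log2 fold changes of 0.72, 0.81 and 0.46, Kcnd3 of -0.42 and Cacna1h of -0.95, and none passed the test. Cacna1h did not overlap between the genotypes, as for 12.3% of all genes in that direction. Ret was 146, 121, 467 and 391 CPM in control and 539, 488, 461 and 486 CPM in Nav-Tsc2 replicates 1 to 4. Gfra2 was 72.5, 40.1, 226 and 140 CPM in control and 190, 204, 184 and 212 CPM in Nav-Tsc2 replicates 1 to 4. Control replicates 1 and 2, both male, were the lowest mice for Ret, Gfra2 and Runx1.

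**Figure D3:**
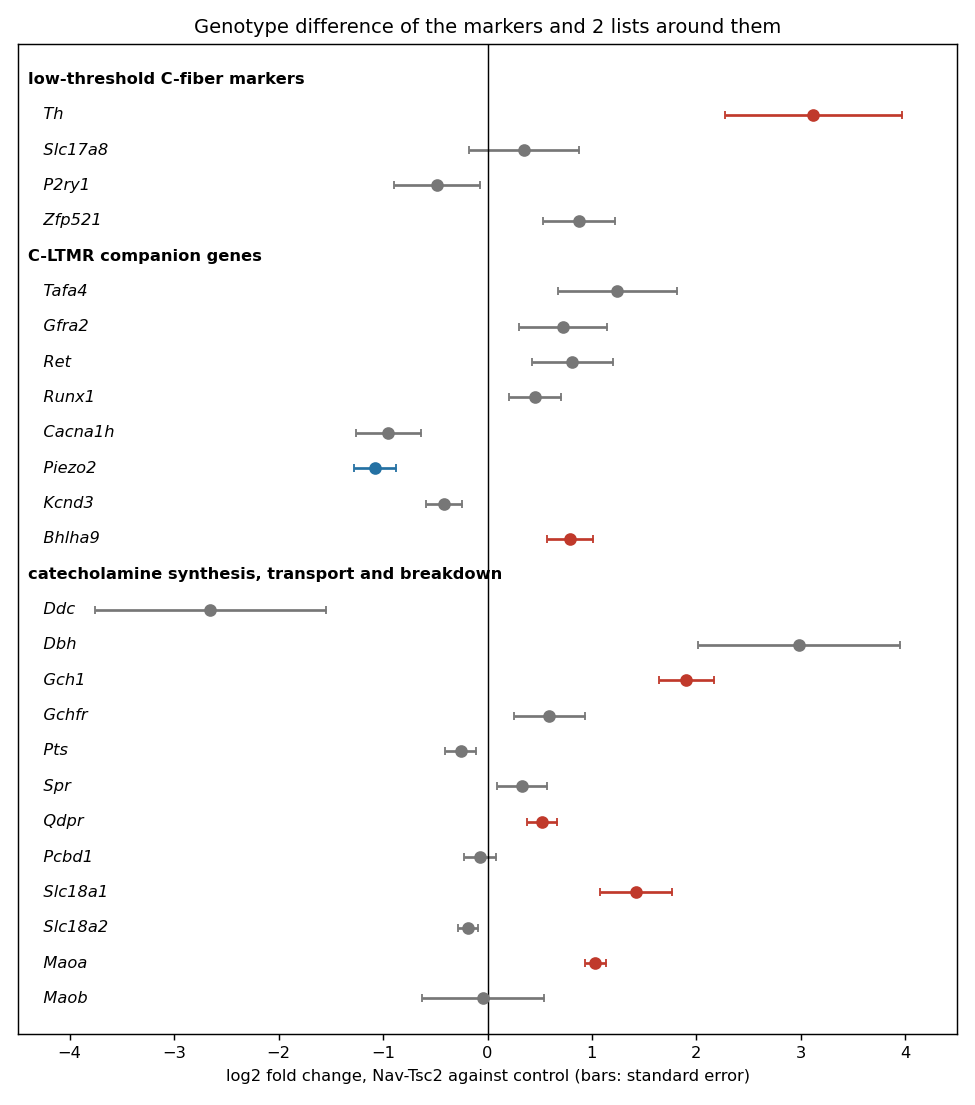
Log2 fold change of Nav-Tsc2 against control mice with its standard error for the 4 markers, 8 genes that accompany them and 12 catecholamine genes; red points were called higher, blue points lower and grey points neither. Th at 3.12 was called higher in this fit, which had no replicate block, and the other 3 markers, at 0.35, -0.48 and 0.88, were not called.

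The genotype difference of each marker was compared between the sexes. With 2 mice of each genotype and sex, the log2 fold change of Th was 3.42 in males and 2.76 in females, and the interaction, female minus male, was -0.66 ± 1.72 (SE, adjusted p = 0.953). The interaction was -0.34 for Slc17a8, -0.23 for P2ry1 and 0.016 for Zfp521 (adjusted p = 0.971, 0.971 and 0.999). None was called, and edgeR called 1 of 17178 genes (0.00582%), while 1583 (9.22%) had an unadjusted p under 0.05. Sex coincided with the replicate numbers, so sex and any batch those numbers mark cannot be told apart.

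Within a mouse, a large share of each marker came from a single library. Summed over the 3 libraries of a mouse, the library with most Th held a median of 59.0% of the CPM (range over 8 mice 45.9% to 87.0%). The same median share was 56.9% for Slc17a8, 51.2% for P2ry1 and 52.9% for Zfp521. Over 8451 genes with a mean of at least 10 CPM the median was 38.9%, and 0.426%, 0.603%, 1.75% and 1.23% of these genes had a share as high as Th, Slc17a8, P2ry1 and Zfp521. Slc17a8 and Zfp521 averaged under that level or near it, where counting noise adds to the spread between libraries. Control library 3C was the highest control library for all 4 markers, at 306 CPM for Th, 7.87 for Slc17a8, 62.7 for P2ry1 and 26.0 for Zfp521. Nav-Tsc2 library 4A was the lowest of its genotype for Slc17a8, P2ry1 and Zfp521 (0.240, 1.62 and 4.21 CPM), and library 4C of the same mouse was the highest for Th, Slc17a8 and Zfp521.

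The deviation of each library from the mean of its mouse, on the log2 CPM scale with a prior count of 2, was then compared between markers. These values remove differences between mice and genotypes, and they are given as a description, since the 3 libraries of a mouse share an animal and a sort and are not independent. All 6 pairs of markers were positively correlated over the 24 libraries. Pearson's r was 0.675 for Th and Slc17a8, 0.659 for Th and P2ry1, 0.640 for Th and Zfp521, 0.649 for Slc17a8 and Zfp521 and 0.702 for P2ry1 and Zfp521. The weakest pair was Slc17a8 and P2ry1, at 0.442. Spearman's rho for these pairs was 0.661, 0.510, 0.633, 0.638, 0.823 and 0.425. Over the other genes with a mean of at least 1 CPM, the median r with a marker was 0.0126 to 0.0676 and the 95th percentile 0.458 to 0.550, so every pair but Slc17a8 and P2ry1 lay above the 95th percentile of both its markers. Among 13620 genes, 0.477% were as highly correlated with Th as Slc17a8 was, and 0.565% as highly with Slc17a8 as Th was. For Slc17a8 and P2ry1 the same shares were 8.25% and 7.87%, and for the other pairs they reached at most 1.86%. Genes outside the 4 markers also correlated with all of them. Among those with a mean of at least 10 CPM, Mid2, Dgcr6 and Kirrel3 had a lowest r with any marker of 0.664, 0.634 and 0.622.

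Without the 2 libraries farthest from the median of the first marker of a pair, a setting added after seeing the data, the 6 correlations were 0.482 to 0.636. In control libraries alone they were 0.287 to 0.820 and in Nav-Tsc2 libraries alone 0.555 to 0.953, and the difference between genotypes was not tested. P2ry1 and Zfp521 peaked in the same library in 6 of 8 mice, Th and Slc17a8, Th and Zfp521, and Slc17a8 and Zfp521 each in 4, and P2ry1 with Th or with Slc17a8 in 2. With 3 libraries per mouse, unrelated genes also share a highest library in some mice, and such counts were not made for other genes. As a measure of depth, r with the log2 total count was -0.282 for Th, -0.0439 for Slc17a8, 0.187 for P2ry1 and 0.0966 for Zfp521. The correlation with the summed glial level was -0.0225, -0.0204, 0.308 and 0.277. The share of reads not counted on genes was highest in Nav-Tsc2 library 4A (55.9%) and, among control libraries, in 4A (51.5%). Nav-Tsc2 4A deviated by -3.95 for Th, -2.79 for Slc17a8, -3.09 for P2ry1 and -1.85 for Zfp521. Control 4A deviated by -2.33, -3.135, -0.548 and -2.84 in the same order. Nav-Tsc2 3B, the next highest at 53.7%, deviated by 2.59, -0.676, -0.424 and -0.295. The part of this share in the correlations was not tested.

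**Figure D4:**
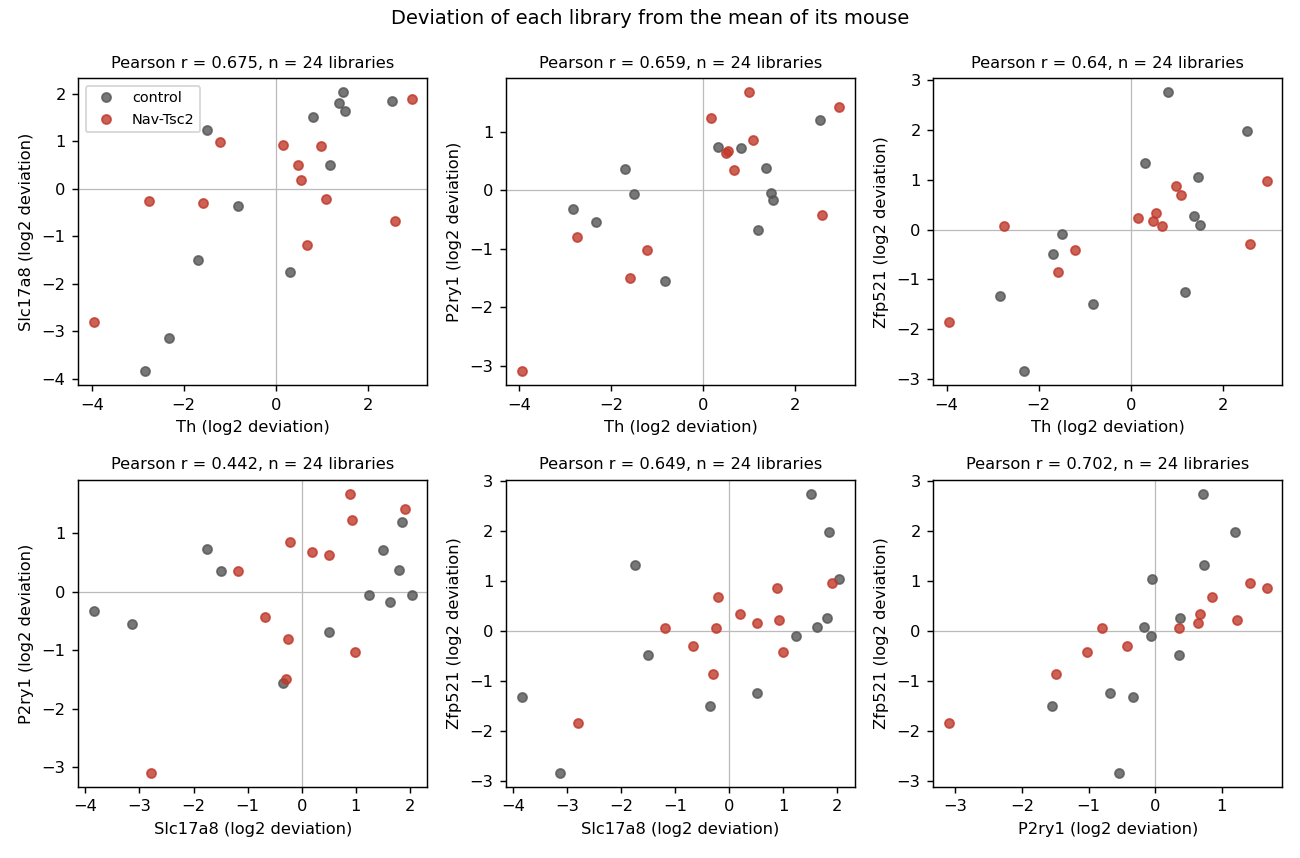
Deviation of each library from the mean of its mouse, in log2 CPM, for the 6 pairs of markers; each point is 1 of 24 libraries, grey for control and red for Nav-Tsc2. Points run from lower left to upper right in each panel, with r from 0.442 to 0.702.

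The genes most like each marker over these libraries, among 8442 or 8443 genes with a mean of at least 10 CPM, differed between markers, although Cckar and Rims1 each appeared for a pair of them. For Th they were Rarres1 (r = 0.880), Kirrel3 (0.875), Cckar (0.849), Ceacam10 (0.844) and Bax (0.822). For Slc17a8 they were Cckar (0.815), Enoph1 (0.814), Ighg2c (0.806), Rims1 (0.796) and Fbxo28 (0.795). For P2ry1 they were AI593442 (0.929), Cdc42bpa (0.903), Necab3 (0.862), Spry2 (0.837) and Snx3 (0.828). For Zfp521 they were AW551984 (0.893), Rims1 (0.859), Rnf13 (0.826), Pptc7 (0.819) and Gtf2e2 (0.819). Cckar encodes a cholecystokinin receptor and Rims1 a scaffold protein of the presynaptic active zone. Ceacam10 and Ighg2c belong to families of near-identical genes, so their counts are uncertain.

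The companion genes tracked the markers unevenly. Tafa4 correlated with Th at 0.529, Slc17a8 at 0.639, P2ry1 at 0.422 and Zfp521 at 0.650. Piezo2 and Kcnd3, an A-type potassium channel, correlated with P2ry1 at 0.665 and 0.590 but with Th at 0.119 and 0.0944. The 12 catecholamine genes correlated with Th between -0.140 (Ddc) and 0.625 (Maob), with Slc18a2 at 0.592, Maoa at 0.532, Gch1 at 0.343 and Gchfr at -0.0845. Mrgprd, a receptor of nonpeptidergic nociceptors, correlated with the markers between -0.215 and 0.250. Calca, the gene of the peptide CGRP, correlated with Th at 0.411, Slc17a8 at 0.418, P2ry1 at 0.669 and Zfp521 at 0.482. The median r with Th was 0.327 for 4 peptidergic markers and 0.191 for the 8 companion genes. With Slc17a8, P2ry1 and Zfp521 it was 0.213, 0.213 and 0.0616 for the peptidergic markers and 0.242, 0.320 and 0.429 for the companion genes.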

How the data were processed

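Reads of 50 bases from amplified cDNA of 100 sorted cells were aligned by the authors to mm10 with STAR and counted per gene with HTSeq (versions not given in the sources used here). The count values were deposited by the authors without normalization, 1 file per library. The 5 HTSeq summary entries, 47.6% to 55.9% of the total, were left out. A deposited table of the authors' own comparison (DESeq2 normalized counts, fold changes and p-values) was not used.

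Library counts were added up within each mouse and tested with edgeR 4.0.16 (R 4.3.3): filterByExpr, TMM, quasi-likelihood F-test and Benjamini-Hochberg adjustment over 17178 genes. Each standard error was derived from the log2 fold change and its F statistic. Co-variation used genes with a mean of at least 1 CPM, and the 5 genes of highest r with each marker were named from those with at least 10 CPM. The tests were checked on simulated counts. The markers, gene lists and tests were chosen with earlier results of these data known. Named genes were the markers, Tsc2, called genes and defining genes near 0 of the lists, and the genes of highest r. Uncalled list genes, Scn10a and S100b were named after their values were seen, and the list of sorted-neuron markers (Scn10a, Scn9a, Prph, Tubb3, Uchl1; 1 of 5 called higher, 0 lower) was added then. Some genes of the lists are not reported here.

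Alternatives were DESeq2 1.42.0, its size factors, upper-quartile scaling, no filter, a replicate block, a term for sex, equal library weights, limma 3.58.1 on all 24 libraries (mouse as random effect), the median library of a mouse, and leaving out each mouse. The pairing of mice by replicate number was checked over 8445 genes. Deviations of equal-numbered mice correlated at 0.184, 0.185, 0.108 and 0.199, all over 0.1. The main test has no block, and the fit with the replicate block is given beside it. The replicate numbers coincide with sex, and pairs of the same sex with unequal numbers correlated at 0.0627 to 0.198. Pairing by number and likeness by sex therefore cannot be told apart.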

Additional observations from a re-analysis of the deposited data

Results flagged for a closer look

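In 6 of 112 groups of 4 mice (5.6 are expected by chance at Dixon's 95% limit), 1 mouse stood apart from the other 3 of its genotype on the log2 scale. Th was at 90.6 CPM in Nav-Tsc2 replicate 3 and at 882 to 1287 CPM in the others. Tafa4 was at 10.2 CPM in control replicate 2 and at 66.3 to 88.6 CPM in the others. Kcnd3 was at 53.9 CPM in Nav-Tsc2 replicate 4 (others 35.5 to 37.4 CPM) and Spr at 47.4 CPM in Nav-Tsc2 replicate 2 (25.2 to 27.8 CPM). Maob was at 0.886 CPM in control replicate 3 and at 8.65 to 9.52 CPM in the others, and Enpp3 at 0.555 CPM in Nav-Tsc2 replicate 1 with the others at 0.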

How the results depend on the processing

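Under 17 alternatives the direction of the genotype difference held for all 4 markers. Th was called in 10 of them; besides the replicate block (3.07, adjusted p = 0.0766), it missed the threshold with the median library of each mouse (3.24, adjusted p = 0.0571) and in 5 of the 8 fits without a single mouse, which together ran from 2.76 to 3.58. The block changed the call of no other marker. Slc17a8 and P2ry1 were called in none. Zfp521 passed when mouse was a random effect (1.37, adjusted p = 0.0435) and with the median library (1.68, adjusted p = 0.0309), and without single mice ranged from 0.61 to 1.07. Over all genes tested, the median difference was 0.10 with the median library and 0.088 in the random-effect fit. Of the genes in the 8 lists around the markers, 8 were called higher; 5 were with the block, which lost Acp3, Bhlha9 and Itpr3, 15 in the random-effect fit, and 2 to 11 without single mice, the fewest without Nav-Tsc2 replicate 1. Those called lower were 5, and 5 to 7 under the alternatives. Over all genes 2941 were called, and 2145 to 4202 under the alternatives. The interaction with sex for Th reached adjusted p = 0.0303 at the same -0.66 without the low-count filter. In that fit edgeR's prior degrees of freedom were infinite, so that no gene's own spread entered its test, and 618 genes were called; DESeq2 called 376. The interaction of Zfp521 was -0.30 with equal library weights. The median r over the 6 pairs of markers was 0.572 to 0.748. With 4 mice per genotype, 100 cells per library and no molecular identifiers, counting error is only part of the spread; for Slc17a8 some libraries held under 10 counts.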

Other observations

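Markers of other classes of sensory neuron are given as counts, beside 9.12% of all genes called higher and 8.00% lower. Of 5 markers of nonpeptidergic nociceptors none was called. Mrgprd averaged 159 CPM in control and 537 CPM in Nav-Tsc2 mice without overlap (log2 fold change 1.76 ± 0.67, adjusted p = 0.094). In control replicates 1 to 4 Mrgprd was at 56.0, 21.9, 325 and 233 CPM, lowest in the males. Of 4 peptidergic markers, Calca fell (-1.99 on the log2 scale) and the neuropeptide gene Gal rose by 1.70. Of 5 markers of itch neurons 4 fell and 0 rose, namely Sst (73.1 to 0.133 CPM), Nppb (56.3 to 4.79 CPM), Il31ra (21.6 to 0.525 CPM) and Mrgpra3 (29.8 to 0.0768 CPM). Of 8 large-fiber markers 1, Cntnap2, fell.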
